A study of Mus musculus with 12 samples.

Results

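The genes described here are 10 genes of the Notch pathway: the receptors Notch1, Notch2 and Notch3, the ligands Dll1, Dll3 and Jag1, the receptor-modifying enzyme Lfng, and the target genes Hes1, Hes5 and Hey1. They were picked by symbol, and each matched 1 locus of its own among the 40597 loci of the deposited expression table. The cells were neurospheres, floating clusters of neural stem and progenitor cells, which the submitters raised from dissociated hypothalamus of C57Bl/6 mice at embryonic day 14.5. Passage 3 neurospheres were kept for 4 hours in 100 nM dexamethasone, a synthetic ligand of the glucocorticoid receptor, or in its ethanol vehicle. The 4 groups are male vehicle, male dexamethasone, female vehicle and female dexamethasone, with 3 libraries in each and 12 in all. All were wild type, and the comparison asks how the hormone changes RNA levels in either sex. The libraries are called biological replicates, but the labels do not name the litters, fetuses or cultures behind them, so p-values measure the spread between these libraries.

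Notch receptors sit in the cell membrane and are activated by Delta and Jagged ligands on a neighbouring cell. Activation leads to cleavage by an ADAM protease and by gamma-secretase, and the freed intracellular domain joins the DNA-binding protein RBPJ and Mastermind proteins to switch on Hes and Hey genes, whose products repress proneural genes. In the embryonic brain the pathway is known for keeping progenitors undifferentiated, while neighbouring cells with more Delta go on to become neurons.

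Levels are FPKM, fragments scaled by transcript length and library size. The depth in reads is unknown, since the table gives no counts, and 13755 to 14826 loci stood above 1 FPKM per library. Loci with no gene name took 75% of the FPKM in male vehicle library 3 and 53.1% in male dexamethasone library 2, against 11.6% to 38.6% in the other 10. Markers of the labelled cell type were present: 8 of 8 neural stem cell markers averaged at least 1 FPKM. So did 5 of 5 astrocyte, 6 of 7 oligodendrocyte lineage and 3 of 7 neuron markers, but 1 of 8 endothelial, 0 of 7 microglial and 0 of 4 erythroid markers. These counts cannot tell stem cells from glia. The 8 stem cell markers had a median difference with dexamethasone of -0.08 on the log2 scale, with 3 positive. Of the 8, 1 was called, Msi1, which fell by 0.64 (adjusted p = 0.0151 in limma), against 0.388% of tested loci called lower. Sox2 was not called (-0.42, adjusted p = 0.0915 in limma), though its 6 treated libraries all lay below the vehicle ones, as for 0.804% of tested loci. The part of these markers in the levels below was not tested. The known glucocorticoid targets Fkbp5, Tsc22d3, Per1 and Klf9 all rose, Fkbp5 by 2.42 averaged over the sexes.

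Lfng was the only gene of the 10 called under dexamethasone in the main fit, which did not pair libraries by replicate number. It encodes Lunatic fringe, a Golgi enzyme that lengthens a sugar on the Notch receptor and is known for favouring activation by Delta over Jagged ligands. Its level was 59.2, 58.7 and 47.7 FPKM in male vehicle libraries 1, 2 and 3 and 116, 101 and 75.8 FPKM in male dexamethasone libraries 1, 2 and 3. In females it was 59.6, 46.2 and 57.4 FPKM with vehicle and 120.5, 97.7 and 111 FPKM with the hormone. Every dexamethasone library lay above every vehicle library in either sex, a pattern that 1 of the 10 genes and 1.41% of the 14931 tested loci showed. Group means were 55.2 ± 6.495 and 97.6 ± 20.1 FPKM in males without and with the hormone and 54.4 ± 7.22 and 109.8 ± 11.46 FPKM in females (SD, n = 3 each).

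Averaged over the sexes, Lfng was 1.87-fold higher with dexamethasone, a difference of 0.90 on the log2(FPKM + 1) scale (SE 0.12, 95% interval 0.64 to 1.16, adjusted p = 0.00405 in limma). All fold changes here are on that scale, on which a low gene shows less than its full change. Lfng was called in each of the 24 alternative fits of the averaged effect, with differences of 0.83 to 0.98. By size it was number 85 of the 171 loci called higher, whose median difference was 0.88. In females alone the difference was 1.00 (SE 0.17, adjusted p = 0.0356 in limma), and in males alone it was 0.80 (SE 0.17, adjusted p = 0.122). The call in females depended on single libraries. It held without male vehicle library 3 (adjusted p = 0.0470), male dexamethasone library 1 (0.0286) or male dexamethasone library 3 (0.0155), and without any other library the adjusted p was 0.0604 to 0.175. It was also lost with no low-value filter (0.110), with libraries scaled to equal protein-coding sums (0.0545) and with female libraries fitted alone (0.0887). Without male dexamethasone library 3, the lowest treated library, the male effect was called as well (0.97, adjusted p = 0.0458). The difference between the female and the male effect was 0.21 (95% interval -0.32 to 0.73, adjusted p = 1.00), so these libraries do not show a sex difference in the response of Lfng.

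**Figure D1:**
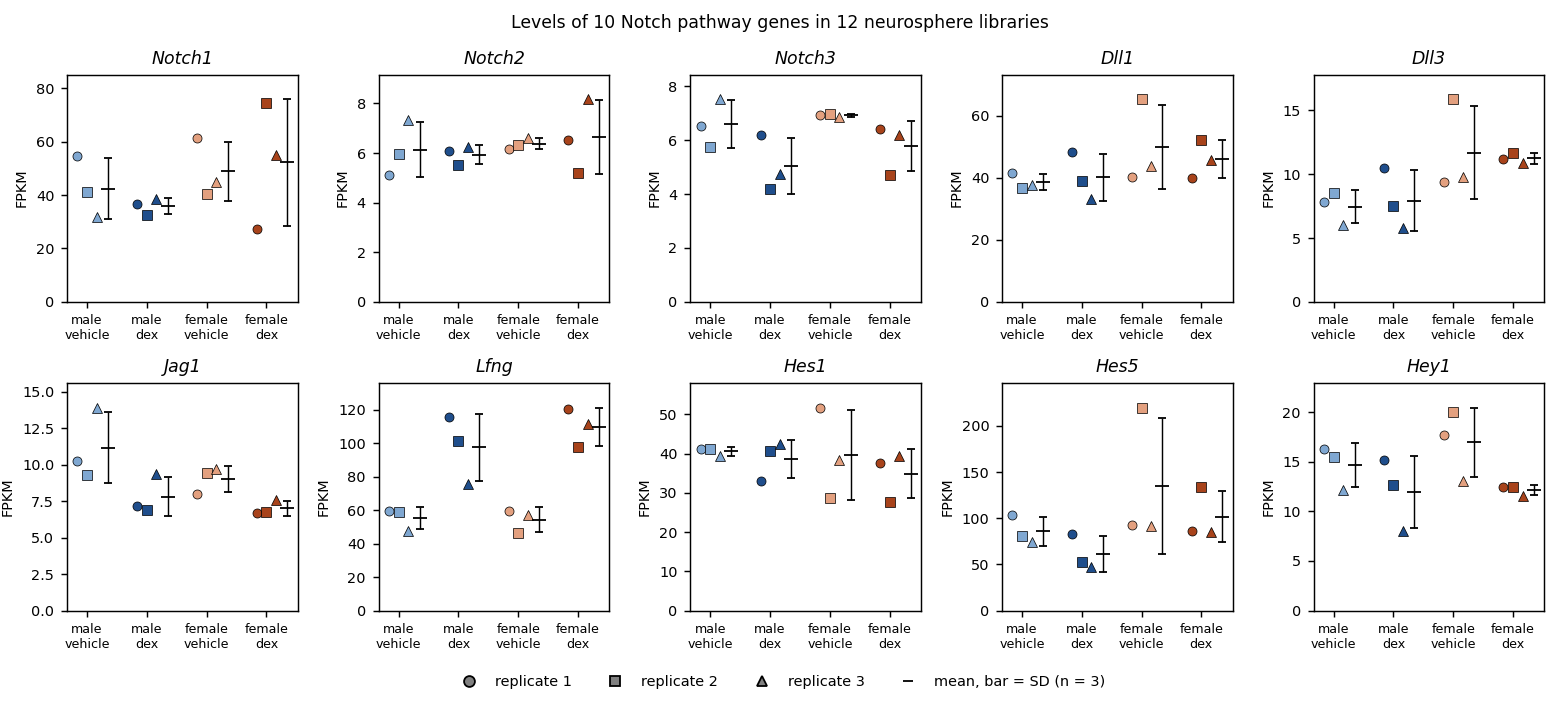
Levels of the 10 genes in FPKM (vertical axes, each starting at 0) in the 4 groups, with 1 symbol per library, its shape giving the replicate number, and the group mean with its SD (n = 3). The 6 dexamethasone libraries of Lfng, between 75.8 and 120.5 FPKM, all sit above the 6 vehicle libraries. The dexamethasone and vehicle symbols of the other 9 genes overlap when the sexes are pooled.

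The 2 other fringe genes in mammals encode related enzymes, Mfng (Manic fringe) and Rfng (Radical fringe), and neither was called. Mfng ranged from 5.54 to 9.93 FPKM in vehicle and from 3.79 to 10.2 FPKM in dexamethasone libraries, a difference of -0.23 (adjusted p = 0.612 in limma). Rfng ranged from 4.75 to 7.45 FPKM in vehicle and from 5.13 to 7.07 FPKM in dexamethasone libraries, a difference of -0.12 (adjusted p = 0.654). Lfng made up 72.7% to 84.0% of the summed FPKM of the 3 fringe genes in the vehicle libraries and 86.6% to 91.2% in the dexamethasone libraries. Whether the 3 genes responded differently was not tested.

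Lfng lies on the plus strand at chr5:140607320-140615545 (GENCODE M21, GRCm38), where no other annotated gene overlaps it. Sequences upstream of the start were found in RefSeq (GRCm38.p6) for 8 of the 10 genes, in 9 windows of 250 bases, and Hes1 and Hey1 were not matched. The letters TGGGAA, the core bound by RBPJ, occurred on either strand in 21.6% of the 32851 windows of all genes and in those of Lfng and Hes5. These windows are printed because they belong to the gene called higher and to the most abundant target gene. Both hold the letters once on each strand. Capitals mark TGGGAA and its reverse complement TTCCCA, and the Lfng stretch stops where the GENCODE transcript begins. The last 153 bases of the Hes5 stretch, with its TGGGAA, lie inside the deposited Hes5 locus.
Lfng, chr5:140607091-140607319, plus strand: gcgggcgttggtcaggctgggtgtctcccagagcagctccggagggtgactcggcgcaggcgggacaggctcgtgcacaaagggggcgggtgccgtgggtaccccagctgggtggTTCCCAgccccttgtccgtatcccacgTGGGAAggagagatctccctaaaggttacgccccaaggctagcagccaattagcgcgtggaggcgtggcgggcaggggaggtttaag
Hes5, chr4:154960673-154960922, plus strand: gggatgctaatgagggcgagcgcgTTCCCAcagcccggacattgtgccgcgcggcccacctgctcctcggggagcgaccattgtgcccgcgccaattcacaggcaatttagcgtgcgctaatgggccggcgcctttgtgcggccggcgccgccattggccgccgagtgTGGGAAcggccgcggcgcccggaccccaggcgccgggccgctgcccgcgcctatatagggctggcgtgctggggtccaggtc
In Lfng the letters began 108 bases before the RefSeq start on the gene's strand and 135 bases before it on the other, and in Hes5 they began 82 and 226 bases before the start. AGAACA, the core bound by the glucocorticoid receptor, was in 16.1% of all windows and, of these 8 genes, in that of Dll1. AGAACA followed after any 3 bases by TGTTCT, the full palindrome, was in 0.00913% of all windows and in none of the 9. CACNAG, letters of Hes binding, was in 36.7% of all windows and in those of Lfng, Notch1, Notch2 and Notch3. A match of letters is a description and does not show that a protein binds there.

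In the vehicle cultures the target Hes5 and the enzyme gene Lfng led the levels. Over the 6 vehicle libraries the median was 92.2 FPKM for Hes5, 58.0 for Lfng, 43.0 for Notch1, 41.0 for Dll1, 40.2 for Hes1, 15.9 for Hey1, 9.54 for Jag1, 8.95 for Dll3, 6.90 for Notch3 and 6.25 FPKM for Notch2. Between neighbours in that order the ranges of the vehicle libraries stayed apart for Hes5 over Lfng and for Hes1 over Hey1, and overlapped for the other 7 steps. Notch1 therefore stood well above Notch2 and Notch3, and it took 63.7% to 85.8% of the summed FPKM of the 4 Notch receptor genes in a library, with a median of 75.2%. Notch4 took 0.768% to 6.12%.

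Over the 10 genes, 1 was called higher and 0 lower in the averaged effect, against 1.53% of all tested loci called in either direction, 1.15% higher and 0.388% lower. At an unadjusted p under 0.05 there were 4, Lfng, Jag1, Notch3 and Hey1, against 13.6% of loci. The median difference of the 10 was -0.11, against -0.01 over all loci, and 3 of the 10 were above 0, as were 48.5% of loci. When libraries were scaled to equal protein-coding sums, Notch2 and Dll3, both near 0, also fell below 0. In females 1 gene, Lfng, was called, against 0.482% of loci in either direction and 0.449% higher. In males none of the 10 was called by limma, against 0.315% of loci, and 3 (Lfng, Jag1 and Notch3) had an unadjusted p under 0.05, against 6.38% of loci. These are bulk RNA levels, in which fewer cells of a type and less RNA per cell cannot be told apart.

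**Figure D2:**
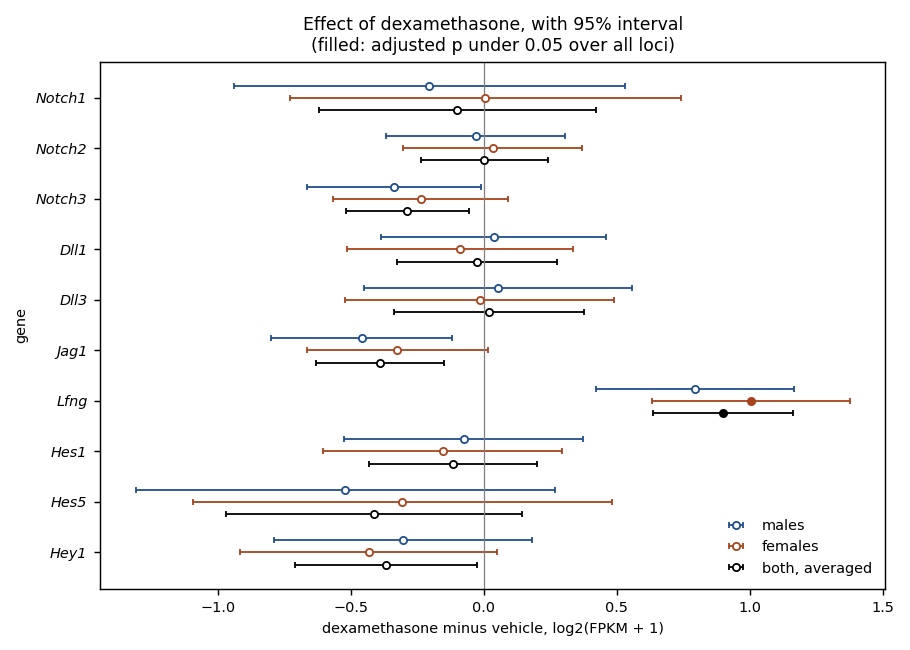
Dexamethasone minus vehicle on the log2(FPKM + 1) scale (horizontal axis) for each gene, with separate points for males, females and their average, 95% intervals from limma, and filled points for an adjusted p under 0.05. The 3 intervals of Lfng lie to the right of 0, and filled points occur for Lfng alone, in females (1.00) and in the average (0.90).

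Of the ligands, Jag1 came nearest to a call in the main fit. It encodes a Jagged ligand, and its transcript lies on the minus strand at chr2:137081456-137116644 with no overlapping annotated gene. Male libraries 1, 2 and 3 had 10.2, 9.31 and 13.9 FPKM with vehicle and 7.15, 6.92 and 9.33 FPKM with dexamethasone. Female libraries had 8.01, 9.39 and 9.68 FPKM with vehicle and 6.66, 6.75 and 7.57 FPKM with dexamethasone. In females the 3 treated libraries lay below the 3 vehicle ones. Over both sexes 5 of 6 treated libraries lay below the lowest vehicle library, the exception being male dexamethasone library 3. The averaged difference was -0.39 (SE 0.11, 95% interval -0.63 to -0.15), and it did not pass the threshold in the main limma fit (adjusted p = 0.144). In an alternative fit, with the replicate number within each sex as a block, Jag1 was called lower (SE 0.044, adjusted p = 0.0120 in limma). That fit called 2.57% of loci lower, and the labels do not say that a number marks a shared source. Group means were 11.1 ± 2.43 and 7.80 ± 1.33 FPKM in males without and with dexamethasone and 9.03 ± 0.895 and 7.0 ± 0.50 FPKM in females (SD, n = 3 each).

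Dll1 encodes a Delta ligand that activates Notch on the next cell. It had 41.6, 36.8 and 37.7 FPKM in males with vehicle and 48.2, 39.0 and 33.2 FPKM in treated males. In females it had 40.3, 65.5 and 43.9 FPKM with vehicle and 40.1, 52.2 and 45.9 FPKM with dexamethasone. The groups overlapped in either sex, and the averaged difference was -0.03 (95% interval -0.33 to 0.27, adjusted p = 0.955 in limma). Dll3 encodes a divergent Delta protein that is not known to activate Notch on neighbouring cells. Male levels were 7.83, 8.52 and 6.04 FPKM with vehicle and 10.5, 7.48 and 5.79 FPKM with dexamethasone, and female levels were 9.39, 15.9 and 9.77 FPKM with vehicle and 11.2, 11.7 and 10.9 FPKM with dexamethasone. Treated and vehicle libraries overlapped, with an averaged difference of 0.02 (95% interval -0.34 to 0.38, adjusted p = 0.973 in limma).

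Among the receptors, Notch1 varied most between libraries of the same group. Its male levels were 54.5, 41.1 and 31.9 FPKM with vehicle and 36.6, 32.6 and 38.7 FPKM with dexamethasone. In females they were 61.4, 40.5 and 44.8 FPKM with vehicle and 27.3, 74.6 and 55.2 FPKM with dexamethasone, so that the treated females held both the lowest and the highest level of all 12. Its averaged difference was -0.10 with a wide 95% interval of -0.62 to 0.42 (adjusted p = 0.884 in limma). Notch2 had the averaged difference nearest to 0 of the 10, with 5.11, 5.98 and 7.33 FPKM in vehicle males, 6.07, 5.5 and 6.25 FPKM in treated males, 6.16, 6.33 and 6.60 FPKM in vehicle females and 6.52, 5.20 and 8.18 FPKM in treated females. Its averaged difference was 0.0016 (95% interval -0.24 to 0.24, adjusted p = 0.999).

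Notch3, a receptor also known from vascular mural cells, stood lower in the treated female libraries. It had 6.93, 6.98 and 6.88 FPKM with vehicle and 6.41, 4.70 and 6.20 FPKM with dexamethasone in females, where the groups did not overlap. In males the vehicle libraries had 6.53, 5.75 and 7.53 FPKM and the dexamethasone libraries 6.20, 4.20 and 4.74 FPKM, where they did. The averaged difference of -0.29 (SE 0.10) did not pass the threshold in limma (adjusted p = 0.270). Blood vessel cells also express Notch1, Notch3 and Jag1. The 8 endothelial markers summed to 2.02 to 5.49 FPKM in the vehicle and 1.28 to 5.17 FPKM in the dexamethasone libraries, with Cdh5 listed at 0 in 10 of 12 libraries. Of the 8 mural and fibroblast markers Acta2 (15.7 to 44.2 FPKM), Tagln (2.92 to 9.77 FPKM) and Cspg4 averaged at least 1 FPKM, and the list summed to 33.3 to 64.9 FPKM with vehicle and 47.5 to 69.8 FPKM with dexamethasone. The pericyte gene Pdgfrb stayed at or below 0.0346 FPKM in every library and Lum was listed at 0 in all 12, while Cspg4, which oligodendrocyte precursors also express, rose by 0.76 (adjusted p = 0.0114 in limma). The part of vessel cells in the levels of the receptors and of Jag1 was not tested.

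The target genes Hes1, Hes5 and Hey1 encode repressors that are widely used as readouts of Notch signalling, and none was called. Hes1 stood at 41.2, 41.2 and 39.3 FPKM in vehicle males and at 33.1, 40.5 and 42.3 FPKM in treated males. It stood at 51.7, 28.7 and 38.4 FPKM in vehicle females and at 37.5, 27.7 and 39.5 FPKM in treated females. All groups overlapped, and its averaged difference was -0.12 (95% interval -0.43 to 0.20, adjusted p = 0.753 in limma). The gene lies on the plus strand at chr16:30064384-30067796 with no overlapping annotated gene.

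Hes5 had the widest spread of the 10, with its highest library 4.66 times its lowest. Males had 103, 80.4 and 73.9 FPKM with vehicle and 83.2, 52.2 and 47.2 FPKM with dexamethasone. Females had 93.2, 219.7 and 91.2 FPKM with vehicle and 86.3, 134 and 85.0 FPKM with dexamethasone. In either sex the treated and vehicle libraries overlapped, and library 2 was the highest of its group in both female groups. The averaged difference was -0.41 (SE 0.25, 95% interval -0.97 to 0.14, adjusted p = 0.50 in limma). The ratio of Hes5 to Hes1 ran from 1.11 in male dexamethasone library 3 to 7.65 in female vehicle library 2.

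Hey1 stood at 16.3, 15.4 and 12.1 FPKM in vehicle males and at 15.2, 12.6 and 8.0 FPKM in treated males, which overlapped. In females it stood at 17.7, 19.99 and 13.1 FPKM with vehicle and at 12.4, 12.4 and 11.51 FPKM with dexamethasone, where the groups did not overlap. Its averaged difference was -0.37 (SE 0.15, adjusted p = 0.332 in limma).

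Counted by overlap alone, treated and vehicle female libraries stood apart for 4 of the 10 genes: Lfng above, against 6.95% of loci, and Notch3, Jag1 and Hey1 below, against 5.82%. In either direction this held for 12.8% of loci. In males it held for 1 of the 10, Lfng, against 11.9% of loci in either direction. Between same-numbered libraries of a sex, Notch3, Jag1, Hes5 and Hey1 were lower with dexamethasone in 6 of 6, as were 10.1% of loci. Lfng was higher in 6 of 6, as were 9.83%. All of these are counts and were not tested.

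No gene of the 10 was called for a difference between the sexes or for a sex difference in the response. For the response the counts were 0 of 10 in limma, against 0.0335% of loci called, and none had an unadjusted p under 0.05, against 1.47% of loci. Under vehicle the counts were 0 of 10, against 0.0737% of loci, with Dll3 below an unadjusted 0.05, against 4.88%. Under dexamethasone they were 0 of 10, against 0.067%, and none was below an unadjusted 0.05, against 2.94%. Dll3 was higher in each female library than in any male library under either treatment. Its difference, female minus male, was 0.56 with vehicle (adjusted p = 0.892 in limma) and 0.49 with dexamethasone (adjusted p = 1.00). Hes5 showed the same separation under dexamethasone, with a difference of 0.74 (adjusted p = 1.00). Female libraries stood wholly above male libraries for 1 of the 10 genes under vehicle, against 5.67% of loci, and for 2 under dexamethasone, against 4.66%. In either direction the shares of loci were 9.21% and 6.58%. Glial marker differences, female minus male, were mostly above 0 as well. For astrocyte markers this held for 5 of 5 under either treatment, with median differences of 0.74 and 0.64, and for oligodendrocyte lineage markers for 5 of 6 under vehicle and 6 of 6 under dexamethasone, with medians of 1.02 and 0.81, against 0.03 and 0.04 over all loci. The summed astrocyte markers overlapped between the sexes, at 218 to 510 FPKM in male and 345 to 519 FPKM in female vehicle libraries and at 297 to 845 and 538 to 689 FPKM under dexamethasone. So did the summed oligodendrocyte lineage markers, at 201 to 270 and 214 to 307 FPKM with vehicle and 205 to 292 and 250 to 304 FPKM under dexamethasone. The oligodendrocyte lineage gene Olig2, listed here with the proneural factors, went the other way under vehicle. It was lower in each female than in any male vehicle library, and the sexes overlapped under dexamethasone. None of these markers was called by limma, and their part in the levels of Dll3 and Hes5 was not tested.

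**Figure D3:**
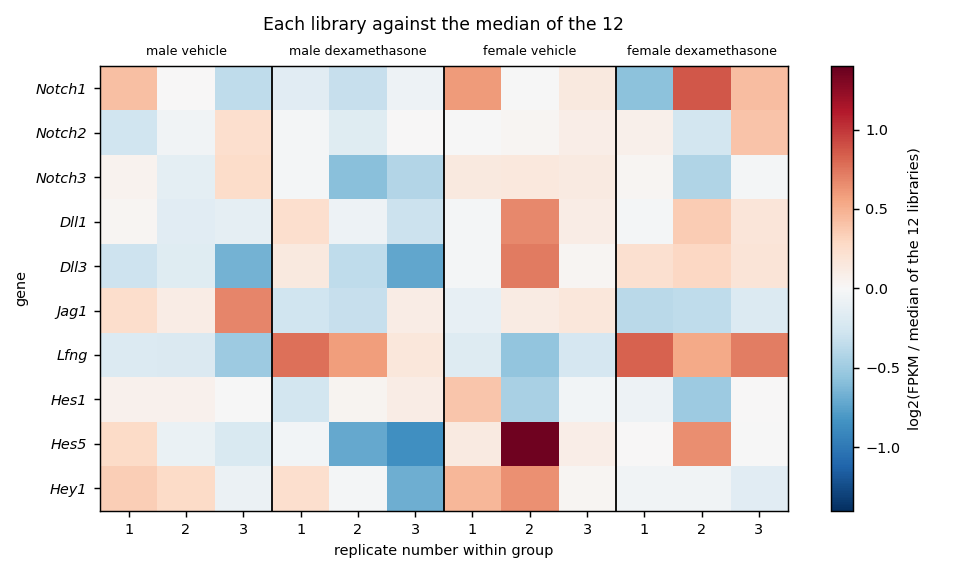
Level of each gene in each library relative to its median over the 12 libraries, on a log2 scale (colour), with genes in rows and libraries in columns, ordered by group and replicate number. The Lfng row splits by treatment, while Dll1, Dll3, Hes5 and Hey1 are highest in female vehicle library 2 and lowest in male dexamethasone library 3.

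Levels also differed between libraries of the same group. Female vehicle library 2 held the highest level of 4 genes, the ligands Dll1 and Dll3 and the targets Hes5 and Hey1, and the lowest level of Lfng. Male dexamethasone library 3 held the lowest level of the same 4 genes. Single markers of neurons and of oligodendrocyte precursors stood highest in female vehicle library 2 and next in female dexamethasone library 2. Dcx, of young neurons, was at 2.09 and 1.67 FPKM in these libraries, against 0.552 FPKM or less in the other 10. Pdgfra, of oligodendrocyte precursors, was at 26.8 and 19.6 FPKM, against 11.5 FPKM or less, and the 7 oligodendrocyte lineage markers summed to 307 and 304 FPKM, against 201 to 292 FPKM. The astrocyte gene Aqp4 was highest in female vehicle library 2, at 34.9 FPKM, but the sum of the 5 astrocyte markers was not. That sum was 519 FPKM there, against 845 FPKM in male dexamethasone library 1. In female dexamethasone libraries 1, 2 and 3 it was 689, 563 and 538 FPKM. The 7 neuron markers, whose sum is mostly Map2, were highest in female vehicle library 2 (349 FPKM) and next in male dexamethasone library 3 (319 FPKM), the library lowest for the 4 genes, with 228 to 318 FPKM elsewhere. The part of these cell types in the levels was not tested.

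Over the 12 libraries Hes5 correlated with Dll1 (Pearson r = 0.88, Spearman rho = 0.78) and with Dll3 (r = 0.83, rho = 0.73), and against Hes1 (r = -0.62, rho = -0.41). Without female vehicle library 2 and male dexamethasone library 3, the libraries farthest from the median of Hes5, r was 0.62 with Dll1, 0.55 with Dll3 and -0.40 with Hes1. Between Hes5 and Hes1 it was -0.016 without female vehicle library 2 and female dexamethasone library 2, the libraries farthest from the median of Hes1. The points share their library sizes, their treatment and their sex groups, so the values are a description. Of 9151 loci with 1 named gene and a mean of at least 5 FPKM, those most like Hes5 were Wbp2 (r = 0.95), Flrt2 (0.94), Lxn (0.93), Kctd1 (0.93) and Zfyve1 (0.93), with rho between 0.81 and 0.92. Those most like Hes1 were Noc3l (r = 0.96), Gtpbp4 (0.94), Nol8 (0.92), Eed (0.90) and Adpgk (0.90), with rho between 0.70 and 0.92. Neither list held another of the 10 genes. With the 2 farthest libraries left out, r was 0.75 to 0.85 for the 5 loci most like Hes5 and 0.76 to 0.89 for those most like Hes1.

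Of 59 further genes of the pathway, 44 averaged at least 1 FPKM and were tested. None was called in the averaged effect by limma, and 7 had an unadjusted p under 0.05, 1 of them positive and 6 negative, against 13.6% of loci. Differences were positive for 13 and negative for 31, with a median of -0.11 against -0.01 over all loci. With libraries scaled to equal protein-coding sums, 7 were positive and 37 negative, 34% of all loci were positive, and none was called. The roles all had 0 calls: 2 further receptors and ligands, 9 genes of receptor processing, 4 of receptor glycosylation, 10 of ubiquitination and endocytosis, 12 of the nuclear complex and its corepressors, 5 further Hes, Hey and target genes and 2 proneural or lateral inhibition factors. In males and in females alone none of the 44 was called either, with 3 and 5 at an unadjusted p under 0.05, against 6.38% and 8.02% of loci. Rbpj, which encodes the DNA-binding partner of the receptor, differed by -0.16 (adjusted p = 0.442 in limma).

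The 15 genes under 1 FPKM on average included the ligands Dll4 and Jag2, the non-canonical ligands Dlk1 and Dlk2, the targets Hes2, Hes3, Hes7 and Heyl, and the proneural factors Neurog1, Neurog2, Neurog3 and Atoh1. Aph1c, Neurl1a and Maml3 made up the rest. Neurog1 and Atoh1 were listed at 0 in all 12 libraries. Numbl shared its locus with Adck4 and Maml2 with Gm22643, so their values belong to joined loci.

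The 3 pathway genes with the smallest p-values, chosen after their values were seen, were Sox9, Furin and Notch4. Sox9, a transcription factor of neural stem cells and glia, ranged from 11.4 to 26.6 FPKM in the vehicle and from 7.25 to 12.1 FPKM in the dexamethasone libraries, which overlapped (difference -0.76, adjusted p = 0.0912 in limma). Without female vehicle library 1, the lowest vehicle library, Sox9 was called lower (-0.90, adjusted p = 0.0218 in limma). Furin, the protease that cuts the Notch precursor, ranged from 5.14 to 6.89 FPKM and from 3.81 to 4.92 FPKM (difference -0.34, adjusted p = 0.113 in limma). Every treated library lay below every vehicle one, as for 0.804% of loci. Notch4, a receptor best known from endothelium, ranged from 0.512 to 2.05 FPKM and from 1.15 to 2.63 FPKM, which overlapped (difference 0.59, adjusted p = 0.124). The endothelial marker sums given above overlapped between the treatments, and the part of endothelial cells in the level of Notch4 was not tested.

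**Figure D4:**
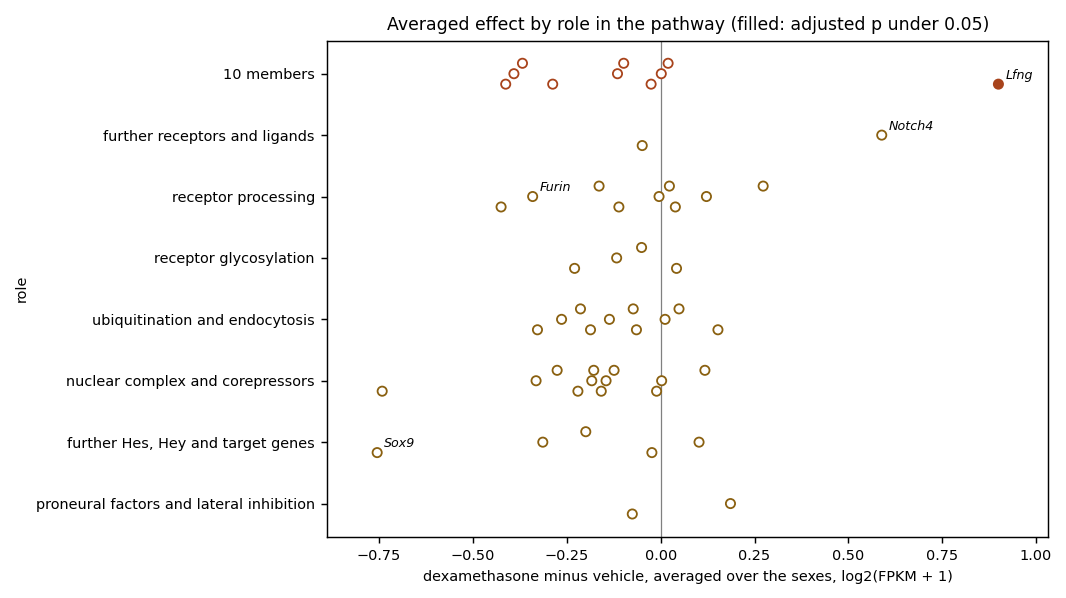
Averaged difference, dexamethasone minus vehicle on the log2(FPKM + 1) scale (horizontal axis), for the 10 genes and for 44 further pathway genes grouped by role (vertical axis), with 1 circle per gene. The filled circle, Lfng at 0.90, is the only call in the plot.

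**Figure D5:**
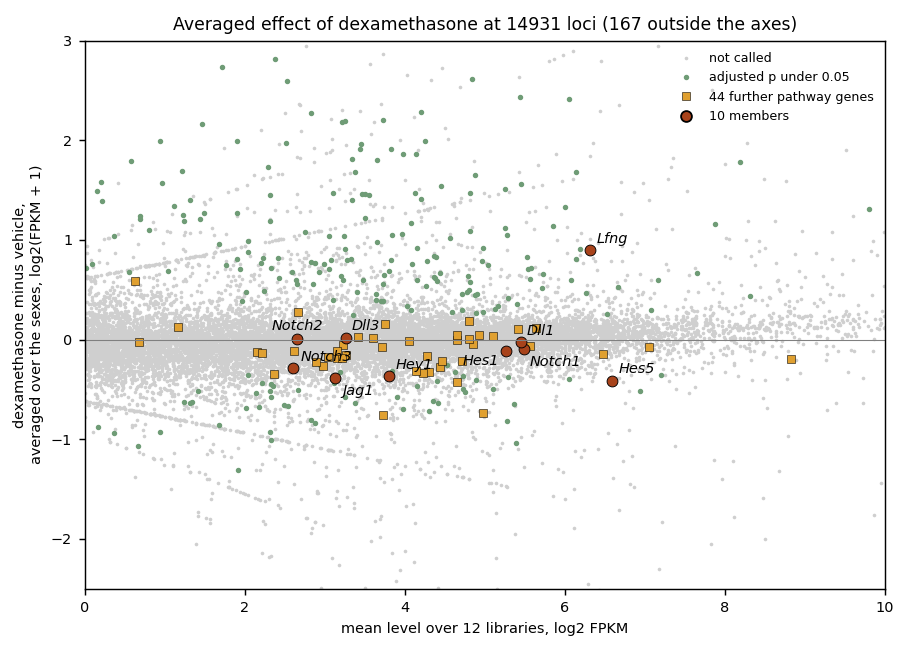
Averaged difference (vertical axis, log2(FPKM + 1)) against mean level over the 12 libraries (horizontal axis, log2 FPKM) for 14931 tested loci, of which 167 lie outside the axes. Lfng lies among the green called loci at 0.90, and the other 9 genes and the 44 further pathway genes lie among or near the grey loci that were not called.

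Some levels depend on how overlapping genes were counted. The Ensembl identifiers of all 10 genes matched GENCODE M21. Antisense genes overlap Notch1 (0610009E02Rik and Gm13568), Notch3 (Gm17276), Dll1 (A930024N18Rik) and Hes5 (Gm20421), and Gm20421 covers 909 bases of the deposited Hes5 locus. The library kit keeps strand, but no source names the strand setting of the counting, so these 4 levels are uncertain to that extent. Notch2 holds the same-strand models Gm42819 and Gm42820, and Notch1 the same-strand Mir6996, which a strand setting would not separate. In the same table the mean was 0.636 FPKM for 0610009E02Rik, 0.120 for Gm17276, 2.08 for A930024N18Rik and 1.52 FPKM for Gm20421, each below the mean of its partner. Lfng, Jag1, Dll3, Hes1 and Hey1 have no overlapping gene in the annotation.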

How the data were processed

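The authors deposited FPKM values for 40597 loci in 12 libraries (4 groups of 3, grouped by the labels' sex and treatment). The submitters' processing notes list Cuffdiff 2.2.1, Cufflinks 2.2.1 and TopHat2 2.0.9, with the GRCm38 build. No source names the scaling between libraries or the strand setting.

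Differences were computed on log2(FPKM + 1) by limma 3.58.1 (R 4.3.3; 4 group means, contrasts, eBayes with a trend, two-sided). The 14931 loci averaging at least 1 FPKM entered the fit. A locus was called where its p, adjusted over all of these after Benjamini and Hochberg, was under 0.05, whatever its fold. The code was tested on simulated data. Alternatives changed the pseudocount (0.1, 0.5), the low-value filter (none, 5 FPKM), the scaling, the weights, the libraries and the replicate block.

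The 10 genes and all lists were chosen with earlier results of these data known. All 10 are named. Of the further pathway genes none was called in the main fit, and those under the filter are named. Others are named for their role, a joined locus, a small p-value or a call in an alternative fit. For Hes1 and Hes5 the 5 loci of highest Pearson correlation are named. Coordinates are from GENCODE M21 and upstream sequences from RefSeq. Joined loci, which hold more than 1 gene, numbered 930.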

Additional observations from a re-analysis of the deposited data

How the results depend on the processing

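The averaged rise of Lfng kept its direction and its call in all 24 alternatives (adjusted p 0.00168 to 0.0408 in limma). In males Lfng was called in 4 of 25 alternatives and in females in 12 of 25. Counts of the 10 genes called for the interaction and for both sex comparisons were 0 under every alternative run. In females the count was 0 with no filter, with protein-coding scaling and with only the groups compared, and 0 to 1 with libraries left out. In males it was 1 with array weights and ranged from 0 to 1 with libraries left out.

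With the replicate number within each sex as a block, alone or with median-ratio scaling, 2 of the 10 genes were called in males and 2 in the averaged effect: Lfng, and Jag1 as lower (-0.39, adjusted p = 0.0120 with the block alone). The block raised the loci called from 47 to 148 in males, 72 to 187 in females and 229 to 804 (5.38%) in the average. Of 44 pathway genes it added Sox9 and Tle4 as lower (adjusted p = 0.0430 and 0.0279) and Aph1b as higher (0.0259). Of 8 stem cell markers Msi1, Nes and Sox2 were called lower (0.0238, 0.0324 and 0.0370), as were 2.57% of loci. Deviations of same-numbered libraries of a sex correlated at 0.0819 to 0.167. Within a sex each library correlated best with its own number, a hint from the data, not the design. Between same-numbered libraries Notch3, Jag1, Hes5 and Hey1 were lower with dexamethasone in 6 of 6 (10.1% of loci). Lfng was higher in all 6 (9.83%). The labels name no pairs, so the main fit used none.

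Genes with differences near 0 changed sign. In males these were Notch2 (0.0035 with quantile normalization), Dll1 (-0.017 with protein-coding scaling) and Dll3 (-0.062 with array weights). In females they were Notch1 (-0.035 with quantile normalization, -0.085 with protein-coding scaling, -0.20 with array weights), Notch2 (-0.047 with protein-coding scaling) and Dll3 (0.058 with array weights). In the average they were Notch2 (-0.063 and -0.019 with protein-coding scaling and array weights) and Dll3 (-0.048 and -0.0022). With 1 library left out, or male vehicle library 3 and male dexamethasone library 2 together, the ranges in males were -0.14 to 0.13 for Notch2, -0.099 to 0.16 for Dll1, -0.15 to 0.23 for Dll3 and -0.14 to 0.030 for Hes1. In females they were -0.30 to 0.41 for Notch1, -0.11 to 0.17 for Notch2, -0.22 to 0.12 for Dll1, -0.14 to 0.21 for Dll3, -0.36 to 0.053 for Hes1 and -0.52 to 0.11 for Hes5. In the average they were -0.25 to 0.10 for Notch1, -0.070 to 0.084 for Notch2, -0.094 to 0.079 for Dll1 and -0.080 to 0.13 for Dll3. The averaged difference of Hes5 ranged from -0.54 to -0.21, the latter without female vehicle library 2. That of Hes1 was -0.22 without female vehicle library 2, -0.062 without male dexamethasone library 1, -0.038 without female dexamethasone library 2 and -0.011 without female vehicle library 1. None of these was called under any setting. The cause was not tested.

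All loci called in males numbered 28 with no filter, 95 with array weights, 19 without the 2 libraries rich in unnamed loci and 21 with only the groups compared, in females 27 with only the groups compared, and in the average 114 without those 2 libraries. With 1 library left out these counts were 28 to 49 in males (28 to 31 without a male vehicle library), 31 to 74 in females (31 and 45 without female dexamethasone libraries 1 and 3, 38 without female vehicle library 3) and 146 to 215 in the average (146 without female dexamethasone library 1). They were 4 to 14 for the interaction (8 or more without male vehicle library 1, male dexamethasone library 1 or 3, female vehicle library 1 or 2, or female dexamethasone library 2), 9 to 23 for sex under vehicle (23 without female vehicle library 1) and 8 to 14 for sex under dexamethasone. For the interaction 5 loci became 11 with no filter, and for sex under vehicle 11 became 21 with only the groups compared. Protein-coding scaling turned the averaged split from 171 higher and 58 lower to 132 and 78. Sox9 was also called with array weights (adjusted p = 0.0386), as was Notch4 (0.0275). Depth is unknown for this table, so limits of detection cannot be set.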
